A study of Homo sapiens with 8 samples.

Results

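Occupancy of chromatin by the V2084D mutant of ARID1A was compared with and without knockdown of STUB1, over all peaks of 4 Flag ChIP-seq peak lists, which were 4 of the 8 samples of the series. The lists were chosen by their labels, 2 libraries of V2084D with STUB1 knockdown against 2 libraries of V2084D alone, and together they held 33951 peaks. All 4 libraries came from ARID1A knockout cells of Huh7, an established line of human hepatocellular carcinoma, into which a lentivirus had brought stably expressed V2084D ARID1A with a Flag tag. The protein mapped was therefore an introduced, tagged mutant in a line without its own ARID1A. The peak names in the lists carry shEV for V2084D alone and sh183 for both knockdown libraries, names that the labels do not explain, and how far STUB1 was lowered is not measured by these files. The series also has 2 libraries of wild-type ARID1A (WT) in the same knockout line, used here as a reference map, and 2 WT inputs, which were not analysed here. The peak names of both WT lists carry shEV, as do those of V2084D alone. The labels do not say whether the 2 libraries of each group were grown as separate cultures, so p-values measure the spread between libraries, which may be technical.

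ARID1A is the subunit that gives the canonical BAF form of the SWI/SNF complex its ARID DNA-binding domain, and the complex uses ATP to move or eject nucleosomes at promoters and enhancers. STUB1, also called CHIP, is a ubiquitin ligase that binds the HSP70 and HSP90 chaperones and marks their misfolded clients for the proteasome. In liver cancer ARID1A is among the more often mutated chromatin genes. The comparison asks whether the mutant protein is found at other places in the genome when the ligase is lowered.

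Regions were built by merging all peaks of the 4 lists with an overlap of 1 bp or more. A region with a peak in both knockdown lists and in neither V2084D list is called knockdown-only, and the opposite is called V2084D-only. The strict form of either class asks for a peak among the 6000 strongest of both lists that hold it, and for no peak of any rank in the lists that lack it. Strength is the rank by the −log10 p that the authors' peak caller gave. The promoters at 3 strict knockdown-only and 3 strict V2084D-only regions are shown as the sequence on which these differences lie. They are the strongest of the regions named below whose promoter window lay outside the annotated span of its gene and was covered along at least 127 bases, a choice made after the values were seen. Each is the 250 bases before the annotated gene start, 5′ to 3′ on the strand of the gene, from RefSeq on GRCh38.p14. Capitals mark motifs found on either strand. The motifs searched were the GC box GGGCGG, the sequence CCAAT bound by the factor NF-Y, the ETS factor core TTCCGG, the AP-1 element TGANTCA, and the E-box CACGTG.

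The knockdown-only promoters were INO80B (chr2:74454837-74455086, plus strand), PPT1 (chr1:40097253-40097502, minus strand) and RPS15 (chr19:1438146-1438395, plus strand), each covered by its region along all 250 bases.
INO80B: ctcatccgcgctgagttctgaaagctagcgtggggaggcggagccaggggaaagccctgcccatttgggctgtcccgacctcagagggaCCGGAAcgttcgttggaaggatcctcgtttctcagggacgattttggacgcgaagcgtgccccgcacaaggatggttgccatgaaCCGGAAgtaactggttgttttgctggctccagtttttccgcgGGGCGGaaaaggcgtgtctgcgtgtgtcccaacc
PPT1: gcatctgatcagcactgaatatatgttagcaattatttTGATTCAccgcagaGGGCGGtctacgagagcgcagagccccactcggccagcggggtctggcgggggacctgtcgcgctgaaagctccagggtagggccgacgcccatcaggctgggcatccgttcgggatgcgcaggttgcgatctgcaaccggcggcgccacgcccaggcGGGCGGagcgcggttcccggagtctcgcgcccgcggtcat
RPS15: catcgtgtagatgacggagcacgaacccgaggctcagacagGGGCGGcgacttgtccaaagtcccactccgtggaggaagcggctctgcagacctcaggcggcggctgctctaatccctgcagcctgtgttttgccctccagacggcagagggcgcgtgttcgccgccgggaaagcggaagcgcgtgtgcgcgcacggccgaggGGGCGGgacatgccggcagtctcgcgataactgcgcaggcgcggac

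The V2084D-only promoters were ANKRD49 (chr11:94493734-94493983, plus strand), HTT (chr4:3074431-3074680, plus strand) and IMP3 (chr15:75640225-75640474, minus strand), covered along 127, 250 and 250 bases.
ANKRD49: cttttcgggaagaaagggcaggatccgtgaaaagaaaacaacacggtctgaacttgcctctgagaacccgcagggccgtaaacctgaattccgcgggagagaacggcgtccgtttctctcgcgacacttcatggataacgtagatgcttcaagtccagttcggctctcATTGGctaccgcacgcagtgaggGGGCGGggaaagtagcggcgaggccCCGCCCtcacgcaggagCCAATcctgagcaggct
HTT: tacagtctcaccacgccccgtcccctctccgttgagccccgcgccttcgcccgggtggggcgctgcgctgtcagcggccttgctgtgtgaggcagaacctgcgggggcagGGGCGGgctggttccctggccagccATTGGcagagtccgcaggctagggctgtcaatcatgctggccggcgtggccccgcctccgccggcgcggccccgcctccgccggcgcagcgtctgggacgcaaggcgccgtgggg
IMP3: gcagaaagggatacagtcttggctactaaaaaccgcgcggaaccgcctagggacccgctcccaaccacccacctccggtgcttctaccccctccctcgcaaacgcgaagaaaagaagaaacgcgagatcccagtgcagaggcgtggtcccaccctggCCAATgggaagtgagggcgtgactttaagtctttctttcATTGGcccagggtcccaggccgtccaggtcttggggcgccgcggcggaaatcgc

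These sequences had a GC content of 59.6% (INO80B), 65.6% (PPT1), 67.6% (RPS15), 58.0% (ANKRD49), 74.8% (HTT) and 60.8% (IMP3). INO80B had 2 TTCCGG matches and 1 GGGCGG, PPT1 had 2 GGGCGG and 1 TGANTCA, and RPS15 had 2 GGGCGG. The TGANTCA match of PPT1 reads TGATTCA, which is neither of the AP-1 elements. ANKRD49 had 2 GGGCGG and 2 CCAAT, HTT had 1 of each, and IMP3 had 2 CCAAT. Of all 15842 promoters in the table, 56.0% had GGGCGG in this window, 34.5% CCAAT, 19.3% TTCCGG, 7.84% CACGTG and 5.04% TGANTCA. The window of TTC8, a stronger knockdown-only region whose window lies inside its gene and is not printed, had no match to any of the motifs and a GC content of 54.4%. A match is a run of letters and not a measured binding site.

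The lists of V2084D held 6000 and 12384 peaks and those with knockdown 8904 and 6663, so the lengths of the 2 groups overlapped. The log2 ratio of knockdown to V2084D was -0.16 (pairs from -0.89 to 0.57, two-sided exact permutation p = 1). With 2 libraries against 2 the smallest p of this test is 0.333, and no comparison of libraries below could pass a threshold of 0.05. The peaks of −log10 q of at least 5 numbered 1248 and 2527 in V2084D and 3074 and 1573 with knockdown, which gave a log2 ratio of 0.31, of the opposite sign. The ratio over all peaks was also positive without the second V2084D library (0.36) and without the second knockdown library (0.05). Read depth is unknown, and it also sets how many peaks a list holds. To take list length out of the comparison, the 6000 strongest peaks of each list were also compared, the whole of the first V2084D list. The weakest of these 6000 had a −log10 p of 3.33 and 6.40 in V2084D and 6.46 and 4.79 with knockdown, and the next peak had the same value to 3 digits in each of the 3 longer lists. Lists of equal length thus did not have equal stringency, and the first V2084D list reached the weakest peaks.

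With equal lengths, the overlap of libraries across groups lay between those of the 2 pairs within groups. The 2 V2084D lists overlapped at 44.9% of their peaks (mean of both directions) and the 2 knockdown lists at 51.3%. The 4 pairs across groups overlapped at 47.2%, 45.7%, 49.1% and 46.4%. The mean within groups exceeded the mean between groups by 1.02 percentage points (exact permutation p = 0.333, the smallest possible). The difference was -1.10 points without the first knockdown library and -3.22 points without the second. Only the V2084D pair, of the lowest overlap, was then within a group, so these signs follow from the overlaps above. Without the first or second V2084D library it was 3.53 and 4.85 points, with the knockdown pair, of the highest overlap, alone within a group.

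The strongest peaks were mostly shared. Of the first 1000 peaks of the V2084D lists, 77.8% and 76.3% had a counterpart in the partner list, and between 76.1% and 80.2% had one in a knockdown list. Of the first 1000 peaks of the knockdown lists, 84.1% and 85.0% had a counterpart in the partner and between 76.3% and 79.2% in a V2084D list. Between ranks 5001 and 6000 these shares lay between 26.6% and 34.5% for every pair of lists. The shares thus differed far more between the first and the last ranks than between libraries of the same and of the other group.

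**Figure D1:**
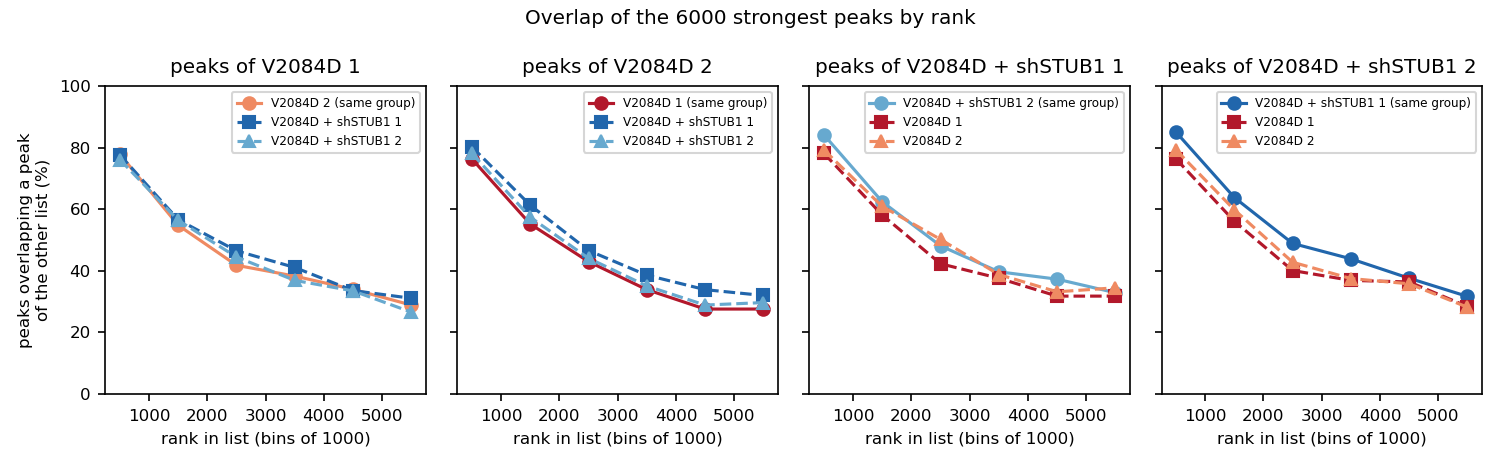
Share of the 6000 strongest peaks of each list (y axis, percent) that overlap a peak among the 6000 strongest of another list, by rank in bins of 1000 (x axis). Solid lines are the library of the same group and dashed lines the libraries of the other group. All curves go from above 76% in the first bin to below 35% in the last, and the same-group line stands highest in the first bin in both knockdown panels.

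Most regions belonged to a single library. The 4 equal-length lists formed 12877 regions, of which 7151 (55.5%) had a peak in 1 list and 1506 (11.7%) in all 4. Among regions held by exactly 2 lists, 515 were knockdown-only (4.0% of all regions) and 414 were V2084D-only (3.22%). The 4 mixed pairs, with 1 library from each group, held 459, 397, 392 and 376. The knockdown pair was thus the largest of the 6 pairs, and the V2084D pair lay within the range of the mixed ones. In the lists as deposited the 18367 regions included 510 knockdown-only (2.78%) and 561 V2084D-only (3.05%), and 2111 with a peak in all 4.

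Which pattern was the more frequent depended on the lists. Knockdown-only regions were 55.4% of both patterns with equal lengths (95% exact binomial interval 52.2 to 58.7%, counting error only) and 47.6% in the lists as deposited. When −log10 q had to reach 5 there were 248 knockdown-only against 110 V2084D-only regions. Of the 515 equal-length knockdown-only regions, 238 (46.2%) had a peak of lower rank in the second V2084D list. Of the 414 V2084D-only regions, 117 (28.3%) had one in the first knockdown list and 23 (5.56%) in the second. The strict rule, which removes such regions, left 277 knockdown-only (1.51% of 18367) and 283 V2084D-only (1.54%).

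Neither strict class was strong. The worse of the 2 ranks had a median of 4564 in knockdown-only and of 4402 in V2084D-only regions, and 5 regions of each had both ranks within the first 1000. For comparison, 217 regions held by all 4 equal-length lists had all ranks within the first 1000. Median fold enrichments within the lists were 4.89 and 4.43 for knockdown-only and 4.33 and 4.74 for V2084D-only regions. Median widths of the merged regions were 568 and 594 bp. Most lay where the wild-type protein was found, since 221 of 277 (79.8%) and 225 of 283 (79.5%) had a peak in both WT lists. No peak of either WT list was found at 15 knockdown-only (5.42%) and 26 V2084D-only regions (9.19%).

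INO80B, a subunit gene of the INO80 chromatin remodeller, lay at the strongest strict knockdown-only region (chromosome 2 from 74454724 to 74455177, hg38). Its summit was 168 bp upstream of the gene start, and it ranked 307 and 373 in the knockdown lists with fold enrichments of 6.93 and 6.06. No V2084D peak was listed there, while both WT lists had one, at ranks 1722 and 827 of these longer lists, with folds of 7.83 and 8.44. LZTS3, a gene of a leucine zipper protein, followed with ranks 390 and 464 (chromosome 20 from 3173112 to 3173599, folds 6.70 and 5.83), its summit 165 bp inside the gene.

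HCN2, a gene of a pacemaker channel, had its region inside the gene, 7825 bp from the start (chromosome 19 from 597366 to 598146, ranks 506 and 261). TTC8, a gene of the BBSome of cilia, had ranks 938 and 869 with the summit 356 bp inside the gene (chromosome 14 from 88824350 to 88824938). ZNF678, a zinc finger gene, had ranks 531 and 971 (chromosome 1 from 227563466 to 227563842). At HCN2, TTC8 and ZNF678 the WT ranks lay between 2325 and 23320.

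DNAH17, an axonemal dynein gene, had a region deep in the gene at ranks 1084 and 1270 (chromosome 17 from 78558303 to 78558702, folds 7.25 and 6.23). PPT1, which encodes a lysosomal thioesterase, had ranks 1339 and 404 (chromosome 1 from 40096927 to 40097589). RPS15, the gene of a small-subunit ribosomal protein, had ranks 1375 and 1236 with the summit 13 bp upstream of the start (chromosome 19 from 1437831 to 1438664). At RPS15 the WT ranks were 2610 and 277, so its peak was among the strongest of the second WT list. Of the 8 named knockdown-only regions, 6 had the summit within 1000 bp of a gene end and all 8 had a peak in both WT lists.

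On the opposite side, the strongest strict V2084D-only region had a worse rank of 108 and is not among those named. TMEM198 lay nearest to the strongest of the named V2084D-only regions (chromosome 2 from 219541496 to 219542098), at ranks 621 and 656 with folds of 5.47 and 6.01. Its summit was 1897 bp upstream of the gene start. ANKRD49 had ranks 275 and 934 (chromosome 11 from 94493446 to 94493860, folds 6.74 and 5.51). The same peak lies near MRE11, which encodes the nuclease of the MRN complex in double-strand break repair, so 1 region stands for both genes. HTT, the huntingtin gene, had ranks 957 and 1130 with the summit 202 bp upstream of the start (chromosome 4 from 3074306 to 3074885).

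IMP3, a gene of a nucleolar protein of rRNA processing, had ranks 963 and 1267 (chromosome 15 from 75639813 to 75640918). DCTPP1, which encodes a pyrophosphatase that cleans the nucleotide pool, had ranks 964 and 1291 (chromosome 16 from 30429553 to 30430141). RNF144A, a ubiquitin ligase gene, had ranks 1300 and 1447 (chromosome 2 from 6917104 to 6917965), ETV2, an ETS factor gene, 1189 and 1655 (chromosome 19 from 35643122 to 35643777), and DENND6B 1682 and 1691 (chromosome 22 from 50326743 to 50327552). All 8 regions had a peak in both WT lists, with ranks from 776 to 24005, and 6 had the summit within 1000 bp of a gene end. The named regions of the 2 classes thus covered similar ranks in their own lists and wide, overlapping ranges in WT.

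Where all 4 equal-length lists had a peak, the groups could be compared by rank. At 302 of the 1506 shared regions (20.1%) both knockdown ranks were better than both V2084D ranks, and at 256 (17.0%) both were worse. Ranks that varied without regard to group would also give each order at a sizeable share of regions. These counts are therefore not read as shifts between groups. Whether the 20.1% and 17.0% exceed such a share was not tested. ARID4A, a gene of a chromatin protein with an ARID domain, had the widest gap towards knockdown, with ranks 4120 and 5660 in V2084D and 171 and 231 with knockdown (chromosome 14 from 58297565 to 58298802). Its WT ranks were 435 and 304. LTBP2, a matrix gene of the latent TGF-beta binding protein family, had ranks 5378 and 5300 against 1701 and 775. PPP1R13L, the gene of the p53 inhibitor iASPP, had 5914 and 5854 against 166 and 2323. Others were LACTB2, ZMAT5, TYW1B and DHX9, the last an RNA helicase gene with ranks 3771 and 5272 against 513 and 662.

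NACC2, a gene of a BTB-domain repressor, had the widest gap towards V2084D, with ranks 241 and 321 in V2084D and 5329 and 5333 with knockdown (chromosome 9 from 136101268 to 136102104). PGBD5, a gene derived from a transposase, had 284 and 1177 against 5471 and 5503. NDUFB10, a subunit gene of respiratory complex I, had 981 and 515 against 4190 and 4590, and HOXC4, a body-axis gene, 759 and 1064 against 4260 and 4743. RPSA, a ribosomal protein gene, had 2025 and 1952 against 5061 and 4923. SPRYD3, ZNF391 and LZTR1 completed the list. A rank is a place within 1 list, and a gap in ranks is not a measured ratio of binding.

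The regions with the best worst rank over all 4 lists were chosen by these ranks, which are given as a description. EEF1A1, a translation elongation factor gene, ranked 2 and 3 in V2084D and 2 and 1 with knockdown, with folds of 8.48 and 6.23 against 4.54 and 11.03. Its fold of 4.54 in the first knockdown list lay below the median of the 6000 strongest peaks there (5.03). Whether this peak is native binding was not tested. ARID1A itself ranked 1 and 1 against 5 and 5, with folds of 23.98 and 32.3 in V2084D and 10.02 and 9.53 with knockdown, at a region 84460 bp past its start (chromosome 1 from 26779204 to 26780865). That peak lies in the gene whose coding sequence the lentivirus carries, and the part of the vector in it was not tested. TXLNA, NPAS4, TSNAX, H3-3A, NRAS and IPO13 followed, with worst ranks of 23, 24, 57, 60, 83 and 96. At STUB1 the best peak within 10 kb ranked 567 and 367 in V2084D and 1430 and 4326 with knockdown, all between positions 680037 and 682077 of chromosome 16. These ranks are places in the lists and say nothing of the amount of STUB1.

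Summits within shared regions were closest for the knockdown pair. Over the 1506 shared regions the median distance between summits was 114 bp for the V2084D pair, 95 bp for the knockdown pair, and 110, 113, 104 and 116 bp for the 4 pairs across groups. The V2084D pair lay within the range of the pairs across groups.

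Peaks without a WT counterpart were fewer with knockdown. Of the 6000 strongest peaks, 11.5% and 10.7% in V2084D and 5.20% and 7.55% with knockdown overlapped no peak of either WT list. Both knockdown libraries lay below both V2084D libraries, with means of 6.38% ± 1.66 (SD, n = 2) and 11.1% ± 0.589 (SD, n = 2). Between the means lay -4.71 percentage points (library pairs -6.30 to -3.12), with p = 0.333 by the exact permutation test, the smallest possible. It lay between -5.88 and -3.53 with any 1 library left out, at -2.62 among the first 3000 peaks and at -4.07 without chromosome 1. When overlap had to reach 50% of both peaks, it was -5.9 points (exact permutation p = 0.667), and the groups no longer stood fully apart. The second V2084D and the first knockdown list, whose weakest peaks had nearly equal −log10 p, had 10.7% and 5.20%.

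These peaks were mostly of low rank and away from gene ends in both groups. Their median ranks were 4143 and 4464 in V2084D and 4371 and 4272 with knockdown. The share with a summit within 1000 bp of a protein-coding gene end was 11.4% and 15.5% in V2084D and 18.9% and 14.1% with knockdown, against 58.3% to 62.0% for the peaks with a WT counterpart. Most were found in no other mutant list, 77.8% and 83.1% in V2084D and 66.99% and 70.4% with knockdown, while of the peaks with a WT counterpart 14.5% to 20.5% stood alone. Chromosome 1 held 32.3% and 32.03% of them in V2084D and 31.7% and 36.2% with knockdown. With chromosome 1 set aside, 9.56% and 8.85% in V2084D and 4.30% and 5.90% with knockdown had no WT counterpart, and the groups still did not overlap.

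**Figure D2:**
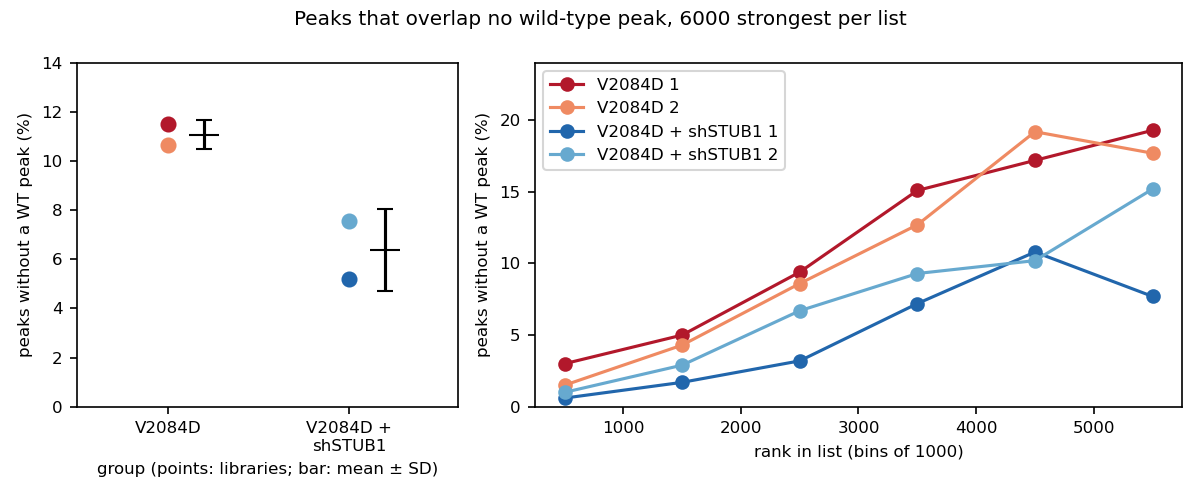
Share of the 6000 strongest peaks that overlap no peak of either wild-type list (y axes, percent), per library with group mean and SD (left) and by rank in bins of 1000 (right). Both V2084D libraries lie above both knockdown libraries overall and in each of the 6 rank bins.

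Gene-end share and peak width overlapped between the groups. Summits within 1000 bp of an end of a protein-coding gene made up 56.2% and 55.6% of the 6000 strongest peaks in V2084D and 58.3% and 55.0% with knockdown, a difference of 0.758 percentage points (exact permutation p = 1) that was -0.917 without the first knockdown library. Median peak widths were 392 and 495 bp in V2084D and 496 and 417 bp with knockdown, a difference of 13.3 bp (exact permutation p = 0.667). It was -38.5 bp without the first V2084D library and -26.3 bp without the first knockdown library. The WT lists cut to the same length had 65.8% in each list at gene ends, median widths of 935 and 877 bp, and 11.5% and 11.8% of their peaks on chromosome 1, where the mutant lists had 17.5% to 18.6%.

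The promoters under the peaks were compared in base composition. The 6000 strongest peaks covered 2298 and 2412 of the 15842 promoters in V2084D and 2602 and 2268 with knockdown. Their median GC content was 67.6% in both V2084D libraries and 66.4% in both knockdown libraries (exact permutation p = 0.333, the smallest possible). Among the strict regions, the 112 V2084D-only promoters had a median of 68.2% and the 101 knockdown-only promoters one of 63.6%, against 62.4% for all promoters. GGGCGG stood in 75.9% of the strict V2084D-only promoters and 65.3% of the knockdown-only ones, CACGTG in 6.25% and 14.9%, TTCCGG in 27.7% and 25.7%, and CCAAT in 33.0% and 36.6%. By library CACGTG stood in 11.5% and 11.3% of covered promoters in V2084D and 12.2% and 10.9% with knockdown, so the groups overlapped for this motif. For GGGCGG the shares were 74.4% and 75.1% in V2084D and 72.8% and 73.99% with knockdown, which did not overlap (exact permutation p = 0.333, the smallest possible).

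By gene, a peak within 10 kb of the annotated span was listed for 3304 of 20033 protein-coding genes (16.5%) in all 4 lists as deposited. Knockdown-only genes numbered 299 (1.49%) and V2084D-only genes 414 (2.07%), and with equal lengths 422 (2.11%) and 397 (1.98%). Of 766 genes measured in 26 lists of pathways and markers, 20 were knockdown-only (2.61%) and 23 V2084D-only (3.0%), and 16 and 23 with equal lengths. With 19 to 44 genes measured per list, a share within a list rests on few genes. A gene is counted when both libraries of a group have a peak within its window, which need not be the same peak.

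Among genes of chromatin regulation, 9 of 30 SWI/SNF subunit genes had a peak in all 4 lists. The shares over all protein-coding genes were 16.5% in all 4, 1.49% knockdown-only and 2.07% V2084D-only. DPF1, a neuronal BAF subunit gene, was knockdown-only (ranks 8086 and 1879) and ARID1B, the paralog of ARID1A, was V2084D-only (ranks 5547 and 4585). In each case the 2 libraries had their best peaks at different places of the gene. Of 27 other remodeller genes, 10 had a peak in all 4 lists, RUVBL1, an ATPase gene of the INO80 and TIP60 complexes, was knockdown-only (ranks 3102 and 3050, at different places), and INO80C was V2084D-only (ranks 1076 and 5221). Both patterns were also found with equal lengths. Of 28 Polycomb and KMT2 genes 11 were occupied in all 4 lists and none was held by 1 group, while with equal lengths PHC1 was knockdown-only.

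Among genes of protein quality control, in which STUB1 works, 12 of 31 cytosolic chaperones and STUB1 partners had a peak in all 4 lists and none was held by 1 group in the lists as deposited. For all protein-coding genes the shares were 16.5% in all 4, 1.49% knockdown-only and 2.07% V2084D-only. With equal lengths BAG3, a co-chaperone gene, and HSF1, the heat-shock factor gene, were V2084D-only. Of 34 proteasome and ubiquitin genes, 4 were knockdown-only (11.8%, PSMA3, PSMD4, UBB and NFE2L1) and 2 V2084D-only (5.88%, PSMB4 and PSMD1). At UBB, PSMB4 and PSMD1 the best peaks of the 2 libraries lay at different places. The ranks of the 4 knockdown-only genes in the first knockdown list were 8058, 6352, 7804 and 8350, beyond the 6000 strongest, and with equal lengths none of the 34 was knockdown-only. Of 26 endoplasmic reticulum stress genes, DNAJC3 was knockdown-only, and HSPA5 (the chaperone BiP) and CALR (calreticulin) were V2084D-only, all of them at ranks beyond 6000 in 1 list.

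Genes of differentiated hepatocytes carried few mutant peaks with or without knockdown. None of 33 genes of secreted liver proteins had a peak in all 4 lists and 22 had none in any, and for hepatocyte metabolism 2 of 28 had a peak in all 4 and 18 had none. Over all protein-coding genes 16.5% had a peak in all 4 lists and 42.2% (8449 of 20033) had none. CYP1A2, a cytochrome P450 gene, was V2084D-only (ranks 4402 and 2682). Of 27 liver transcription factor genes 5 had a peak in all 4 lists, and FOXA1, a pioneer factor, was knockdown-only (ranks 4990 and 5371), also with equal lengths, where HNF4G was V2084D-only. FDFT1, a gene of sterol synthesis, was V2084D-only (ranks 5639 and 4128) in both kinds of list. Markers of other cells had peaks in all 4 lists at 6 of 20 blood, 3 of 20 neuron and 0 of 20 fibroblast and endothelial genes, with CD14 knockdown-only and KDR and ROBO4 (at different places) V2084D-only. With equal lengths KDR kept its pattern, CD14 and ROBO4 did not, and the neuron gene DLG4 was knockdown-only. A peak of ARID1A is not a measure of expression, so these counts do not test the identity of the cells.

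Genes of growth and division had mixed patterns. Of 43 cell cycle and replication genes, 4 were knockdown-only, the kinase genes CDK1 (ranks 6745 and 2453) and CDK2 (8689 and 3807), the origin gene ORC1 (7337 and 6375) and RB1 (4482 and 4538), and none was V2084D-only. These 4 were 9.30% of the list, against 1.49% knockdown-only and 2.07% V2084D-only over all protein-coding genes. At CDK2 and ORC1 the 2 libraries had their best peaks at different places. With equal lengths RB1 was knockdown-only and the helicase gene MCM2 was V2084D-only. INSR, the insulin receptor gene, was among the stronger knockdown-only members (ranks 897 and 597), at different places of a long gene in the 2 libraries. DUSP6, a MAPK phosphatase gene, was knockdown-only and KDR V2084D-only among 31 kinase pathway genes. DUSP6 ranked 6384 in the first knockdown list, and with equal lengths INSR and KDR kept their patterns and DUSP6 did not. Of TGF-beta genes, PMEPA1 and ID1 were knockdown-only and SMAD2 and SMAD4 V2084D-only, with best peaks at different places for PMEPA1 and SMAD2. The glycolytic gene HK2 was knockdown-only (ranks 5094 and 3085) and EPAS1, a hypoxia factor gene, V2084D-only (rank 6742 in the second V2084D list). With equal lengths HK2 and VEGFA were knockdown-only and TPI1 was V2084D-only.

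In the lists as deposited 4 of 28 DNA repair genes were V2084D-only (14.3%, against 2.07% of all genes) and none was knockdown-only. NBN had ranks 690 and 2597 and MRE11, at the region shared with ANKRD49, 275 and 934, both genes of the MRN complex. RBBP8 (ranks 5571 and 7029) and FANCD2 (4990 and 11329) were the others, at ranks beyond 6000 in the long second V2084D list, and with equal lengths MRE11 and NBN were V2084D-only, 2 of 28. Of 38 oxidative phosphorylation genes 3 were V2084D-only (NDUFB9, NDUFV1 and COX6C) and NDUFV2 was knockdown-only, at different places. NDUFB9, COX6C and NDUFV2 ranked 8273, 8139 and 8836 in 1 list, beyond the 6000 strongest. With equal lengths the balance turned, as NDUFV1 was V2084D-only and NDUFA2 and NDUFS1 were knockdown-only. For p53 targets RRM2B was V2084D-only, and for the Wnt list LGR4, both at different places. LGR4 ranked 8189 in the second V2084D list, and with equal lengths LEF1 and not LGR4 was V2084D-only. RRM2B kept its pattern there, and CDKN1A of the p53 targets was knockdown-only.

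The shares of genes with a peak in all 4 lists were highest for AP-1 and ribosomal protein genes. A peak in all 4 lists was found at 10 of 19 AP-1 genes (52.6%) and 19 of 44 cytosolic ribosomal protein genes (43.2%), against 16.5% of all genes. No AP-1 gene was held by 1 group in either kind of list, and of ribosomal protein genes RPL11 was knockdown-only in the lists as deposited and RPL23 with equal lengths. YAP/TAZ target and TEAD genes (10 of 27 in all 4), HOX genes (8 of 39) and interferon and antigen presentation genes (3 of 33) also had no member held by 1 group in the lists as deposited. Over all protein-coding genes 1.49% were knockdown-only and 2.07% V2084D-only as deposited, and 2.11% and 1.98% with equal lengths. At such shares lists this short can hold none without differing from other genes. With equal lengths F3 of the YAP/TAZ list was knockdown-only, IRF1 of the interferon list was V2084D-only, HOXD8 was knockdown-only and HOXD11 and HOXD12, which lie side by side, were V2084D-only.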

How the data were processed

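Each ChIP library has its own narrowPeak list as the authors deposited it, with peaks named for that library. The submitters' processing notes name MACS2, deepTools and bedtools beside Bowtie2, Trimmomatic, Picard and SAMtools, and the build hg38. Tool versions, settings and control libraries were not given in the sources used here. The deposited lists give a fold enrichment (a ratio) and, as −log10, the p and q of each peak, which were used only within a list. Read counts were not used here, so the depth is unknown.

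Regions, overlaps and permutation tests were computed with Python 3.11.15, pandas 2.3.3, numpy 2.4.6 and scipy 1.17.1. Peaks were ranked by −log10 p, ties by fold. Ties at rank 6000 involved 191, 114 and 170 peaks in the second V2084D and the 2 knockdown lists. Genes and promoters came from RefSeq tables of GRCh38.p14, with an annotated start for 15842 of 20033 protein-coding genes. Exons were not used here. Of 767 list names, 766 were matched.

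Libraries were compared by two-sided exact permutation tests. Named regions are the 8 strongest per class within 10 kb of a protein-coding gene. List members named are up to 4 per list and pattern, and those named for equal lengths were chosen after their values were seen. A few genes that these rules select are not reported here. Members and lists were chosen with earlier results of these data known. Tested on simulated lists of 6600 regions, the code returned 10 of 10 planted counts. Alternatives were the overlap rule, list length, ranking, −log10 q, distances, chromosomes, each library left out and the replicate block. Leaving out chromosome 1, using gene starts alone, and counting genes with equal lengths were added after seeing the data.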

Additional observations from a re-analysis of the deposited data

How the results depend on the processing

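The lower share of peaks without a WT counterpart with knockdown kept its direction in all alternatives run, from -6.42 to -2.62 percentage points. When overlap had to reach 50% of both peaks, it was -5.9 points with p = 0.667 by exact permutation (main 0.333). The 2 groups then no longer stood fully apart. Under −log10 q of at least 5 the log2 ratio of peak numbers was 0.31 (main -0.16), and the shortest list held 1248 peaks. Knockdown-only and V2084D-only regions then numbered 248 and 110 (main 510 and 561), with equal lengths 137 and 103 (main 515 and 414), by the strict rule 84 and 58 (main 277 and 283), and shared regions with better and worse ranks 66 and 49 (main 302 and 256). With the first 3000 peaks these counts were 278 and 225 with equal lengths, 54 and 61 by the strict rule, and 139 and 111 by rank, where fewer peaks entered by construction. Regions with worse ranks numbered 163 when overlap had to reach 50% of both peaks. The knockdown-only share of both equal-length patterns was 60.0% when peaks were ranked by fold (main 55.4%). Of the 8 named strict regions per class, 5 and 3 kept the class with −log10 q of at least 5. With overlap of 50% of both peaks 8 and 6 kept it, and with ranking by fold 7 and 8. All strict knockdown-only and V2084D-only regions then numbered 387 and 306 with the overlap rule and 301 and 248 with ranking by fold (main 277 and 283).

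With 1 library left out, the other stood for its group, so that counts grew by construction. Knockdown-only regions ranged from 755 to 2924 as deposited, from 962 to 2271 with equal lengths and from 445 to 1632 by the strict rule. V2084D-only regions ranged from 862 to 6065, from 718 to 2390 and from 463 to 1992. Better and worse ranks ranged from 630 to 741 and from 596 to 680. The knockdown-only share ranged from 29.0 to 75.1%, below the main value without a V2084D library and above it without a knockdown library by construction, since a pattern then needs 1 list on one side and 2 on the other, so this range is no measure of stability. The log2 ratio of peak numbers ranged from -0.69 to 0.36, the within minus between overlap from -3.22 to 4.85 points, the gene-end difference from -0.917 to 2.43 points and the width difference from -38.5 to 65.0 bp. The log2 ratio of peak numbers was positive without the second V2084D library (0.36) and without the second knockdown library (0.05).

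Replicate numbers are shared by the groups but nothing says that they mark a shared culture. The deviations of same-numbered libraries had a correlation of 0.00492 over ranks at shared regions. With the replicate block the exact sign-flip p was 0.5 for the share without a WT counterpart (-4.71 points) and 1 for peak number (-0.16), gene-end share (0.758 points) and width (13.3 bp), where 0.5 is the smallest p that 2 pairs allow.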

Other observations

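The equal-length lists placed more peaks on chromosome 19 with knockdown than without, an uneven spread that was noticed in the data and not planned. Chromosome 19, the most gene-dense human chromosome, held 7.0% and 6.98% of the 6000 strongest peaks in V2084D, 8.22% and 7.75% with knockdown and 6.88% and 6.75% in WT. It held 41 of the 277 strict knockdown-only regions (14.8%) and 17 of the 283 strict V2084D-only regions (6.01%). Strict regions leaned the other way on chromosome 12 (6 knockdown-only and 17 V2084D-only), chromosome 14 (5 and 16) and chromosome 21 (4 and 12), among others. On chromosomes 12 and 14 the shares of the 6000 strongest peaks overlapped between the groups. On chromosome 17 these shares were 5.22% and 4.95% in V2084D against 5.78% and 5.53% with knockdown. In all, 3 of 24 chromosomes had both knockdown libraries above both V2084D libraries, 6 had both below, such as chromosome 21 (2.60% and 2.68% against 1.97% and 2.48%), and 15 overlapped. The 250 zinc finger genes of chromosome 19 with a ZNF symbol were knockdown-only at 6 and V2084D-only at 6 in the lists as deposited, and the other 1201 genes of the chromosome at 36 (3.0%) and 22 (1.83%), against 1.49% and 2.07% of all protein-coding genes.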
